A study of Homo sapiens with 2 samples.

Results

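Genes of the p53 pathway were described in SW48 after knockdown of the transcription factor YY1. SW48 is an established cell line from a human colorectal cancer. The set held 33 genes, namely regulators of p53 and well known p53 target genes, and its members were found by gene symbol in the annotation of the array platform. Of these, 31 had a value, out of 17687 named genes in all. BTG2 and FDXR had none in the table used and are not analysed here. Each of the 31 genes was read by a single probe set.

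The p53 protein is a transcription factor that is kept low by MDM2, a ubiquitin ligase whose own gene p53 activates. When DNA is damaged, p53 accumulates and switches on genes that stop the cell cycle, repair DNA, adjust metabolism or lead to cell death. YY1 is a zinc finger protein that has been reported to bind p53 and MDM2 and to promote the degradation of p53. SW48 is generally listed as having wild-type p53, which these arrays do not check.

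The groups were siControl, SW48 cells given a negative control small interfering RNA (siRNA), and siYY1, SW48 cells given a single siRNA sequence against YY1. Each siRNA was used at 5 nmol/L with a lipid reagent, cells were cultured for 3 days, and each group had 1 array of total RNA. Without replicates there is no error to test against, so each difference below is a description of these arrays. Differences are log2 values in siYY1 less those in siControl, and a gene was counted as higher or lower when its arrays differed by at least 1.5-fold. The levels of YY1 and of p53 mRNA are not analysed here, so neither the depth of the knockdown nor the array labels were checked.

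The arrays had nearly the same distribution of values, with a median over all probes of 7.11 in siControl and 7.10 in siYY1. Of the 8 colon epithelium markers with a value, 6 lay above the level filter described below, with KRT8 at 16.35 and EPCAM at 16.04 in siControl, while CDX1 and VIL1 were dim. All 5 leukocyte, 4 fibroblast and 4 endothelial markers with a value lay under the filter on both arrays, with values from 4.91 to 6.35, from 3.89 to 5.97 and from 3.12 to 5.80, respectively. In such bulk RNA, fewer cells of a type and less RNA per cell cannot be told apart.

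Most p53 pathway genes differed little between the arrays, as did most genes of any kind. A difference of less than 0.25 was found for 19 of the 31 pathway genes and 10619 of the 17687 named genes. The median absolute difference was 0.22 for the pathway genes and 0.20 for all named genes. Among well known p53 target genes, CDKN1A, the cell cycle inhibitor p21, differed by 0.02, while MDM2 was 1.30-fold higher and CCNG1 1.26-fold lower in siYY1. Such differences were common. Of all genes above the level filter, 19.7% had a larger absolute difference than MDM2 and 24.9% than CCNG1. The activity of p53 itself was not measured. Some other p53 target genes, given below, passed 1.5-fold in both directions, but the exceptions among the 31 genes lay on the low side. TRIAP1, a p53-induced inhibitor of apoptosis, was 2.63-fold lower, and DDB2, which recognises ultraviolet damage in DNA, was 1.57-fold lower.

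A filter on level kept the 8844 genes whose log2 values averaged at least 7.54, the median over all named genes. It kept 27 of the 31 pathway genes. Of these 27, 0 were higher and 2 were lower by 1.5-fold or more, which made 7.41%. Among all genes kept, 6.82% passed the same threshold, 3.04% higher and 3.78% lower, so the share in the pathway was near the background. The median difference over the 27 genes was -0.08, with 13 above 0 and 14 below 0, beside a median of 0.00 over all genes kept. In absolute terms the median difference was 0.22 for the pathway genes and 0.18 for all genes kept. Of the 27 genes, 17 differed by less than 0.25, as did 5568 of the 8844 genes kept. At a lower threshold of 0.32 on the log2 scale, 8 of the 27 were counted, 2 higher and 6 lower (29.6%), beside 25.7% of all genes kept.

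The 4 genes under the filter were PLK3, PIDD1, TRAF4 and TP53INP1. All 4 had lower values in siYY1, with differences from -0.68 to -0.09. Of all 17687 named genes, 8450 also had lower values in siYY1, and 77.5% of genes of like level differed more than PLK3. Whether the dim values of the 4 genes exceed background is unknown, and the signs and sizes of their differences are uncertain. Over all 31 genes, filter or not, 3 (9.68%) were at least 1.5-fold lower and 0 higher, beside 7.88% of all 17687 named genes in either direction and 3.9% on the low side. Pathway genes were brighter than most, with a median mean level of 11.38 on the log2 scale against 7.54 over all named genes. Bright genes scattered less. Among the 5792 genes with a mean log2 value of at least 10, 5.15% were past 1.5-fold, as was 1 of the 21 pathway genes at that level, DDB2 (4.76%).

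**Figure D1:**
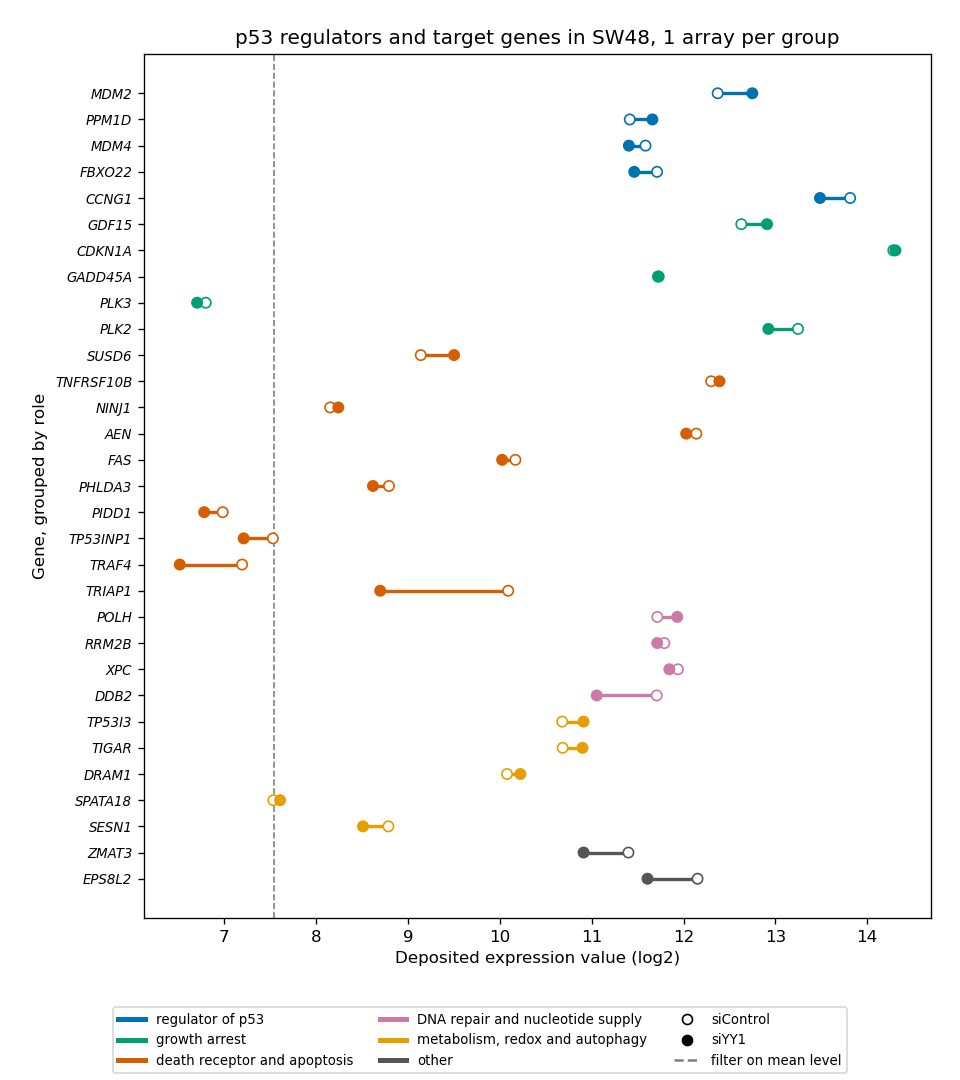
Deposited log2 values of the 31 p53 pathway genes, grouped by role, with 1 array for siControl (open circles) and 1 for siYY1 (filled circles); the dashed line is the level filter at 7.54. The longest lines are those of TRIAP1, from 10.09 to 8.70, TRAF4 and DDB2, all lower in siYY1.

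The regulators of p53 were all bright, and none of the 5 was past 1.5-fold. MDM2 went from 12.37 in siControl to 12.75 in siYY1, and its difference of 0.38 was the largest positive one among the 31 genes. Of all genes within 0.5 of its mean log2 level, 14.1% had a larger absolute difference. MDM4, the paralog of MDM2 that binds p53 and inhibits its activity, differed in the opposite direction, from 11.59 to 11.40. PPM1D, the phosphatase WIP1 that is induced by p53 and shuts the damage response off, went from 11.41 to 11.66. CCNG1, cyclin G1, is a p53 target that acts back on p53 through MDM2 and a phosphatase. It went from 13.81 to 13.49, a difference of -0.33, and 11.9% of genes of like level differed more. FBXO22, a substrate receptor of a ubiquitin ligase, went from 11.71 to 11.46. Over the 5 regulators, 2 differences were above 0 and 3 below, with a median of -0.18.

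Of the growth arrest genes, CDKN1A was the brightest of the 31 genes, at 14.28 in siControl and 14.31 in siYY1. This inhibitor of cyclin-dependent kinases is the usual mark of p53-dependent arrest, and 93.2% of all genes kept had a larger absolute difference. GADD45A, a stress-induced growth arrest protein, was as close, at 11.72 and 11.73. Its difference of 0.01 changed sign after quantile normalization or median centring. GDF15, a secreted stress cytokine that p53 activates, went from 12.63 to 12.91, a difference of 0.28. PLK2, a polo-like kinase that p53 induces, went from 13.25 to 12.92, a difference of -0.32. Its relative PLK3 was dim and differed by -0.09. None of the 5 arrest genes with a value was past 1.5-fold, and their median difference was 0.01.

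The genes of cell death and its control held the largest differences of the set, those of TRIAP1 and the dim TRAF4, and the other 8 lay within 1.5-fold. The death receptor genes hardly differed. FAS, the receptor of FAS ligand, went from 10.17 to 10.02, and TNFRSF10B, the TRAIL receptor DR5, from 12.30 to 12.39. PIDD1, the death domain protein of the PIDDosome, was dim at 6.98 and 6.78. Among intracellular effectors, the nuclease gene AEN went from 12.14 to 12.03 and PHLDA3, an inhibitor of AKT, from 8.79 to 8.62. SUSD6, a p53-induced membrane protein, went from 9.14 to 9.50, the second largest positive difference of the 31 genes at 0.36. NINJ1, which ruptures the plasma membrane of dying cells, differed by 0.09. TP53INP1, a p53 cofactor in apoptosis and autophagy, was dim and differed by -0.32 (7.53 to 7.21). TRAF4, a signalling adaptor, was 1.60-fold lower at 7.19 and 6.51, both under the filter, and 10.3% of genes of like level were past 1.5-fold.

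TRIAP1 encodes a small protein that inhibits apoptosis and carries phosphatidic acid in the mitochondrial intermembrane space with PRELI family proteins. Its value was 10.09 in siControl and 8.70 in siYY1, or -1.39 on the log2 scale. It was the only one of the 27 genes to differ by 2-fold or more, beside 0.95% of all genes kept. Of the 8844 genes kept, 7 had a lower difference, and 0.358% of genes of like level had a larger absolute one. PRELID1, its partner in lipid transfer and named outside the rule for named genes, differed by 0.17 (14.37 to 14.53). Without TRIAP1, the median over the other 26 pathway genes was -0.03, with 13 above and 13 below 0, and 1 of the 26 was past 1.5-fold.

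TRIAP1 and its neighbour GATC, a subunit of the mitochondrial glutamyl-tRNA amidotransferase, are transcribed away from each other on chromosome 12. In the RefSeq promoter table of GRCh38.p14, 59 bases separate their first transcribed bases. The sequence between those starts, with the first 20 bases of TRIAP1, is shown because the genes share it and their values differed. It is written 5′ to 3′ on the minus strand at chr12:120446365-120446443, with capitals for a match to ATGGCG, the core of the recognition sequence of YY1, on the opposite strand.
TRIAP1-GATC: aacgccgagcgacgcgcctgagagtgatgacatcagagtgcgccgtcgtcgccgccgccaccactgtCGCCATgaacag
The match covers bases 9 to 14 of the TRIAP1 transcript and overlaps its first ATG, which starts at base 13. GATC went from 13.74 to 13.52, a difference of -0.23, while TRIAP1 differed by -1.39. On the other side, COX6A1, a subunit of cytochrome c oxidase, differed by 0.14. Of the 6 other protein-coding genes with a value within 100 kb, none was past 1.5-fold, and the 5 above the filter lay between -0.23 and 0.20. None of these neighbours had a difference near that of TRIAP1. Whether YY1 binds this sequence was not measured.

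**Figure D2:**
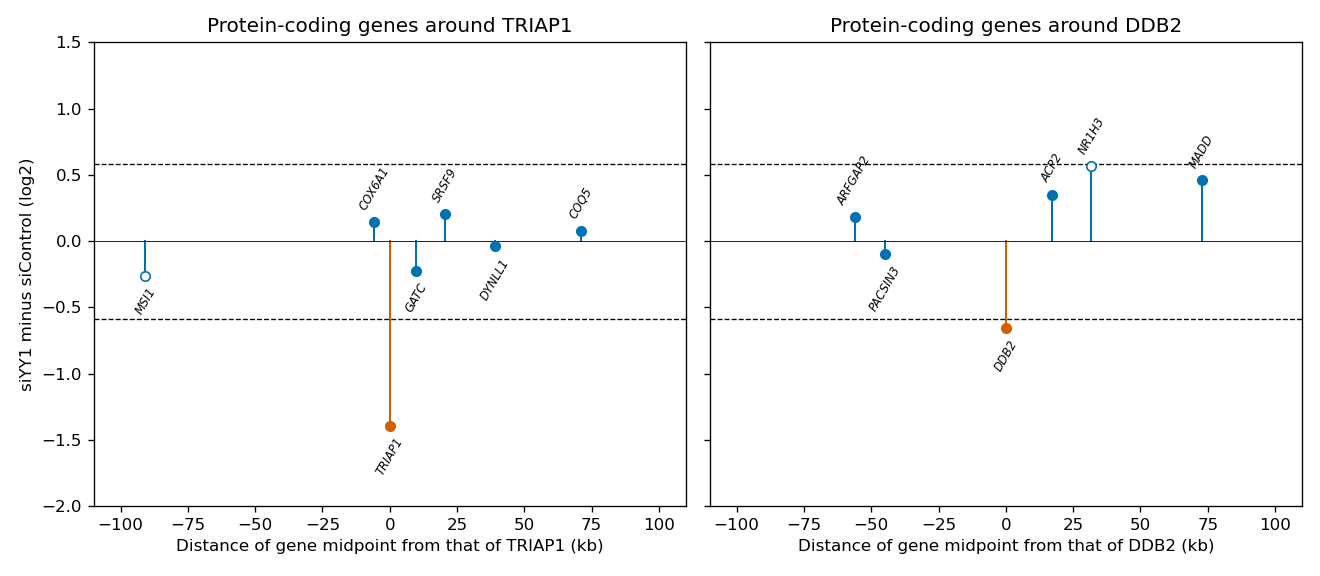
Difference between the arrays (siYY1 minus siControl, log2) for protein-coding genes within 100 kb of TRIAP1 (left) and DDB2 (right), against the distance between gene midpoints in RefSeq GRCh38.p14. Orange marks TRIAP1 and DDB2, blue their neighbours, open points lie under the level filter and dashed lines mark 1.5-fold; no neighbour is past 1.5-fold, with GATC at -0.23 and MADD at 0.46.

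Matches to ATGGCG on either strand were then searched in the promoters of all members, with a single promoter per gene. The window ran from 250 bases before to 50 after the start. Of the 31 genes, 25 had a promoter listed, and 3 of these (12%) held a match, including the TRIAP1 match already shown. Beside this stood 11% of 27305 promoters of the same length and 19.9% of the 7462 promoters of genes kept. The matches, in capitals within 30 bases, are shown because the 3 genes that share the motif differed from each other. MDM4 is at chr1:204516400-204516429 on the plus strand, TIGAR at chr12:4321152-4321181 on the plus strand and TRIAP1 at chr12:120446359-120446388 on the minus strand.
MDM4: ggcttcattactCGCCATttcaaaatgctg
TIGAR: ccgcctcggcctATGGCGgcggagccggcc
TRIAP1: cgccaccactgtCGCCATgaacagtgtggg
MDM4 differed by -0.18, TIGAR by 0.22 and TRIAP1 by -1.39. Of genes of like level, 49.1% had a larger absolute difference than MDM4 and 44.3% than TIGAR, so the signs of these 2 carry little information. Whether the motif goes with a difference was not tested. A match is not a binding site, and no match says only that the letters are not in the window.

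A p53 half-site, which is only part of a p53 response element, was searched as the decamer RRRCWWGYYY. Here R is A or G, W is A or T and Y is C or T. The half-site was found in the promoters of 2 of the 25 genes (8%), beside 6.54% of all promoters and 5.00% of those of genes kept. These 2 promoters held no ATGGCG match, so the motifs could not overlap. The matches are printed in capitals, with PLK2 at chr5:58460199-58460228 on the minus strand and AEN at chr15:88621296-88621325 on the plus strand.
PLK2: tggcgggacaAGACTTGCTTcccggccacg
AEN: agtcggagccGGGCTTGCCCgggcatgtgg
These genes differed by -0.32 and -0.11. Many p53 elements are known to lie in introns or farther upstream, outside the windows searched.

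DDB2 was the only DNA repair gene of the set past 1.5-fold. With DDB1 and a cullin ligase it finds ultraviolet lesions for nucleotide excision repair. It went from 11.71 to 11.05, a difference of -0.65, and 3.94% of genes of like level had a larger absolute difference. Its partners, named outside the rule for named genes, differed less. DDB1 differed by 0.04 (13.66 to 13.70) and the cullin gene CUL4A by -0.14 (12.91 to 12.77). XPC, the lesion sensor that acts with DDB2, went from 11.94 to 11.85, and its partners RAD23B and CETN2, also outside that rule, differed by 0.26 and -0.13. Of these p53-induced lesion sensors, DDB2 was thus past 1.5-fold and XPC was not, and the difference between them was not tested. None of the 5 protein-coding genes with a value within 100 kb of DDB2, also named outside that rule, was past 1.5-fold. On one side, the lysosomal phosphatase gene ACP2 differed by 0.35, the dim nuclear receptor gene NR1H3 by 0.56 and MADD by 0.46. On the other side, PACSIN3 differed by -0.09 and ARFGAP2 by 0.18. POLH, the polymerase that copies past ultraviolet lesions, went from 11.71 to 11.93. RRM2B, the p53-inducible ribonucleotide reductase subunit that supplies nucleotides for repair, was nearly level at 11.79 and 11.71.

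Of the 5 metabolic, redox and autophagy genes with a value, none was past 1.5-fold. Their median difference was 0.15, with 4 of 5 above 0, beside 50.4% of all genes kept. TIGAR, a phosphatase that lowers fructose-2,6-bisphosphate and slows glycolysis, went from 10.68 to 10.90. TP53I3, an oxidoreductase that p53 induces, went from 10.68 to 10.91. DRAM1, a lysosomal membrane protein that promotes autophagy, went from 10.08 to 10.22. SPATA18, a mitochondrial quality control protein, was at the filter value, at 7.53 and 7.61. SESN1, a sestrin that restrains mTORC1, was the gene below 0, at 8.79 and 8.51. Its difference of -0.28 contrasts with that of its paralog SESN2, given below.

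The remaining targets lay just inside the threshold. EPS8L2, an actin regulator, went from 12.15 to 11.61, a difference of -0.54 or 1.46-fold. ZMAT3, a zinc finger protein that binds RNA and controls splicing, went from 11.40 to 10.91, a difference of -0.49 or 1.40-fold. Of genes of like level, 5.84% differed more than EPS8L2 and 10.8% more than ZMAT3. With DDB2, TRIAP1 and the dim TRAF4, these were the 5 members that differed most, and all 5 were lower in siYY1. They were picked by the size of their differences. Of all genes kept, 11.2% had a larger absolute difference than ZMAT3, and 6.18% had a lower difference. Over the 27 pathway genes above the filter, 13 differences were above 0 and 14 below.

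**Figure D3:**
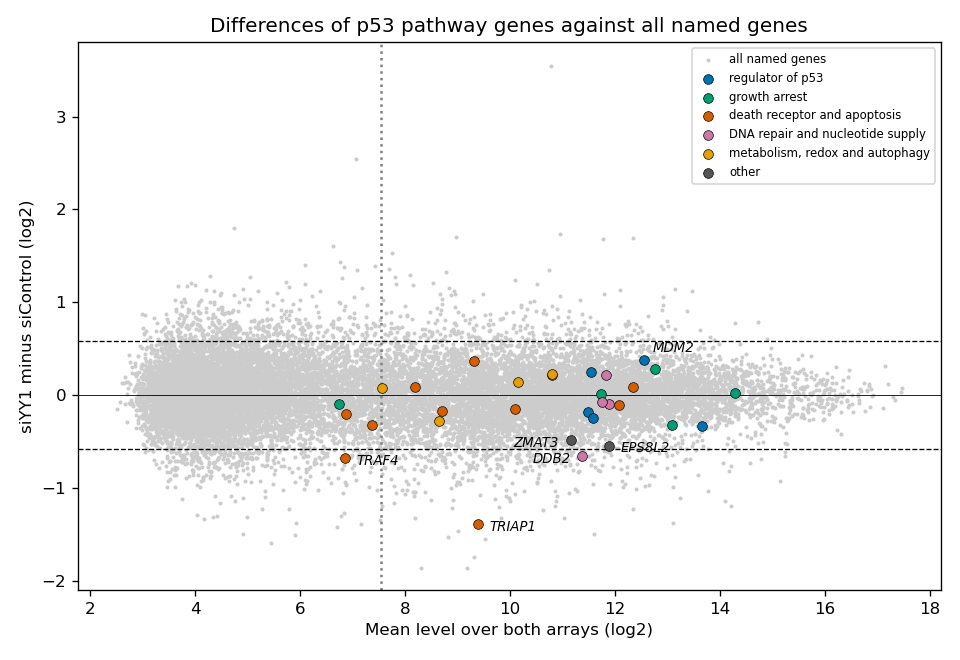
Difference between the arrays (siYY1 minus siControl, log2) against the mean log2 level, for all named genes (grey) and the 31 p53 pathway genes coloured by role; dashed lines mark 1.5-fold and the dotted line the level filter. The axis leaves out the lowest difference of all named genes, -2.35. Most pathway genes lie within the grey cloud between the dashed lines, while TRIAP1 at -1.39 lies near the lower edge of the cloud at that level.

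Other p53 target genes were taken from a separate list. It too was chosen with earlier results of these data known, so its share past 1.5-fold is a description and no independent check. Of its 71 genes, 64 had a value and 49 were above the filter, of which 5 were at least 1.5-fold higher and 3 lower (16.3%, beside 6.82% of all genes kept). The median difference was 0.03, with 27 genes above 0 and 22 below. The highest were DDIT4, a stress-induced inhibitor of mTORC1, from 10.66 to 11.57, and SESN2, from 9.22 to 10.03. Both are also known targets of the amino acid stress response. KITLG (0.76), APAF1 (0.69) and MICALL1 (0.60), named after their values were seen, were the others past 1.5-fold on the high side. KITLG encodes stem cell factor and APAF1 the scaffold of the apoptosome.

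On the low side, LIF, a cytokine of the interleukin-6 family, went from 9.97 to 9.10. TNFRSF10D, a decoy receptor for TRAIL, was 1.61-fold lower, from 10.15 to 9.46. PERP, a desmosomal membrane protein named after its value was seen, was also 1.61-fold lower, from 15.12 to 14.44. The signalling TRAIL receptor genes lay within 1.5-fold, with TNFRSF10A at 0.27 and TNFRSF10B at 0.09, beside -0.69 for TNFRSF10D. TNFRSF10C, a further decoy receptor gene on the list, had no value and is named outside the rule for named genes. Signalling and decoy receptors could therefore not be compared as groups. BAX, the pore-forming effector of apoptosis, differed by 0.25 and PMAIP1, the BH3-only protein NOXA, by 0.22. TNFRSF10A, BAX and PMAIP1 were named after their values were seen.

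Of 39 genes that modify p53 or act as its cofactors, 35 had a value and 32 were above the filter, with 0 at least 1.5-fold higher and 2 lower. This made 6.25%, near the 6.82% of all genes kept. HIPK2, a kinase that phosphorylates p53 and favours apoptosis, went from 12.80 to 12.02, a difference of -0.78. KAT8, an acetyltransferase of p53 and of histone H4, went from 9.88 to 9.20, a difference of -0.67. PPP1R13B, a member of the ASPP family that steers p53 to apoptosis genes, differed by 0.48 (7.31 to 7.79), its siControl value lying under the filter. PML, which organises nuclear bodies that recruit p53, differed by 0.34. The median of this list was -0.08, with 12 genes above 0 and 20 below.

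Genes that p53 represses through p21 and the DREAM complex were measured as a readout downstream of CDKN1A. All 23 were above the filter. None was past 1.5-fold, beside 6.82% of all genes kept, and 23 genes are too few to tell these shares apart. Their median difference was 0.08, with 14 above 0 (60.9%) and 9 below, beside 50.4% of all genes kept above 0. CCNA2, cyclin A2, was the highest at 0.31 and TOP2A, a topoisomerase of dividing cells, was next at 0.30. The phosphatase gene CDC25C (-0.48) and the checkpoint kinase gene BUB1 (-0.26) were the lowest.

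**Figure D4:**
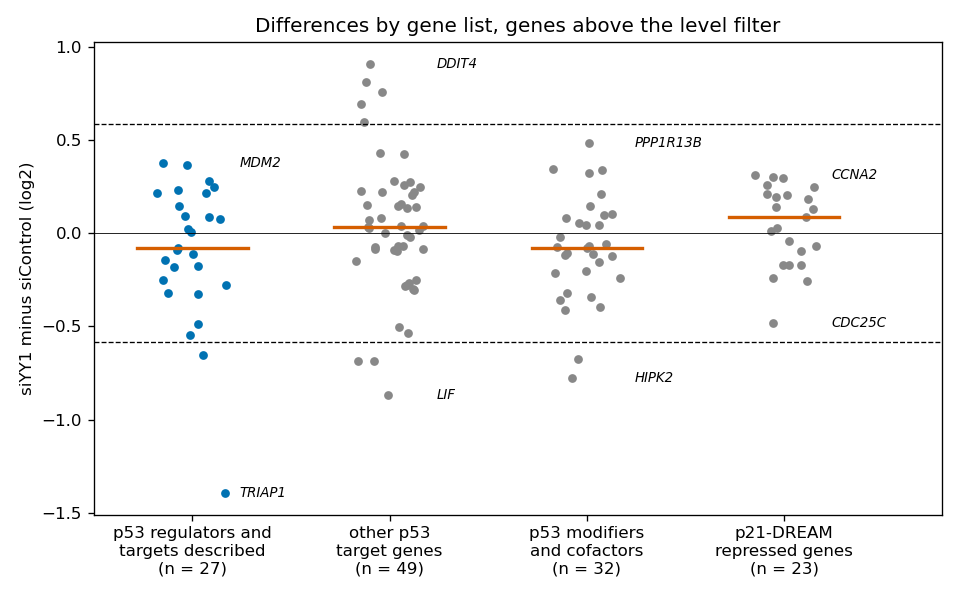
Differences between the arrays (siYY1 minus siControl, log2) of single genes above the level filter, for the p53 regulators and targets described (n = 27), other p53 targets (n = 49), p53 modifiers and cofactors (n = 32) and genes repressed through p21 and DREAM (n = 23); horizontal bars are medians, dashed lines mark 1.5-fold and the sideways spread of points has no meaning. The medians lie between -0.08 and 0.08, and TRIAP1 is the point farthest from 0.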

How the data were processed

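Per the labels' protocols, siRNAs were transfected into SW48 cells and total RNA was labelled with biotin for GeneChip arrays. The authors deposited 1 value per probe set, used here as log2 values because they ran from 2.32 to 17.97. Software, normalization method and log base were not given in the sources used here. Every fold assumes plain log2. The sorted values of the 2 arrays lay within 0.153 of each other, so the deposited values were already on a common scale.

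Of 21448 probe sets, 17709 had a gene symbol in GEO's platform annotation, and 0 symbols changed on update through RefSeq. Several probe sets of a gene (20 genes) were averaged. Sample titles gave the groups. The p53 genes and all lists were chosen with earlier results of these data known. The named genes were all p53 members, up to 2 kept genes at each end of every other list, and the neighbours of members at least 2-fold different, and others are marked where they appear. Calls were tested on simulated data. Alternatives were a lower and a higher fold, other level filters, quantile normalization, median and lowess centring (fraction 0.3) and the brightest probe set. Promoters came from RefSeq, GRCh38.p14. Python 3.11.15, numpy 2.4.6, pandas 2.3.3, statsmodels 0.14.6 and matplotlib 3.10.9 were used.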

Additional observations from a re-analysis of the deposited data

How the results depend on the processing

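With 1 array per group, no replicate could be left out, and the number of arrays limits every value. No paired analysis was possible because each group had 1 array. Each of the 31 p53 pathway genes stayed on its side of 1.5-fold under quantile normalization, median centring and lowess centring. The sign changed for GADD45A alone. The arrays were already on a common scale, so quantile normalization and median centring had little to change. Using the brightest probe set could not alter these genes, since each was read by a single probe set. TRIAP1 ranged from -1.41 to -1.38 and DDB2 from -0.67 to -0.65. At the threshold of 0.32 on the log2 scale, 8 of the 27 pathway genes were counted, 2 higher and 6 lower (29.6%), beside 2274 of all genes kept (25.7%). At 2-fold the counts were 1 (3.70%), TRIAP1, and 84 (0.95%). Without a filter, 3 of 31 pathway genes (9.68%) and 1394 of 17687 named genes (7.88%) were past 1.5-fold. A mean log2 value of at least 10 was chosen after seeing the data. At that level the counts were 1 of 21 (4.76%) and 298 of 5792 (5.15%), since TRIAP1 lay under it. The median difference of the pathway genes ranged from -0.09 to -0.08 and that of the other p53 targets from 0.02 to 0.04.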
